A study of Mus musculus with 12 samples.

Results

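Liver gene expression in mice that received PTFC, the pure total flavonoids from Citrus named in the study's title, on a high-fat diet was set against that in mice on a normal diet, at the same week. The comparison took the 3 arrays labelled PTFC treatment and the 3 labelled ND, 6 of the 12 arrays of the series, and all 19084 genes with a named probe. The series concerns PTFC in diet-induced fatty liver, and the question put here was which changes of the diet remained in livers that received the extract. All mice were male C57BL/6, 6 per group, and were fasted for 12 hours before liver was taken. ND mice ate feed with 12.3% fat for 24 weeks and received saline. PTFC mice ate feed with 36.1% fat and 2% added cholesterol for 24 weeks, at first for 6 weeks without the extract and then for 18 weeks with 50 mg of it per kg per day into the stomach. HFD24 mice ate the same high-fat feed for 24 weeks with saline, and their 3 arrays are given beside the others. Age was 31 to 33 weeks for every PTFC and HFD24 array and for ND replicate 1, and 30 to 32 weeks for ND replicates 2 and 3. The 3 arrays of a high-fat group of 16 weeks (HFD16) entered the normalization and the estimate of the spread, and no comparison. The labels do not say whether each replicate came from a separate animal or from pooled animals, so p-values reflect only how these samples varied, and that variation could be technical. No mice received the extract on a normal diet, so PTFC with ND holds the diet and the extract together.

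The liver makes cholesterol from acetyl-CoA through the mevalonate pathway, whose genes are switched on by the transcription factor SREBP-2 when sterols in the membrane are low and fall silent when cholesterol arrives with food. Fat that is not burned or exported is stored in droplets coated with proteins such as the perilipins and the CIDE family. In fatty liver that has become inflamed, resident Kupffer cells and incoming macrophages, sinusoidal endothelium and stellate cells, which lay down collagen, alter their expression as well. Because whole liver was measured, fewer cells of a type and less RNA per cell cannot be told apart.

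Levels are given as log2 of the array intensity plus 1 after quantile normalization, differences are log2 differences with the standard error (SE) of the limma fit, and n is 3 arrays per group throughout. The threshold for a call was 0.05 for p after Benjamini-Hochberg adjustment over all genes. Between PTFC and ND, 445 of 19084 genes passed (2.33%), 199 higher (1.04%) and 246 lower (1.29%) in PTFC. A change of 2-fold or more was found for 266 of them (1.39% of all genes). In HFD24 with ND 3483 genes passed (18.3%), 1903 higher (9.97%) and 1580 lower (8.28%). In PTFC with HFD24 1145 passed (6%), 564 higher (2.96%) and 581 lower (3.04%), a split of 49.3% higher that was 90.5% on the values as deposited and 37.3% after median centring. The count in PTFC with HFD24 was 11 without PTFC replicate 3, 39 without HFD24 replicate 1, 230 without HFD24 replicate 2, 354 without PTFC replicate 2, 442 without HFD24 replicate 3, 467 without PTFC replicate 1, 641 without HFD16 replicate 3 and 337 with the replicate block. Of 81 named genes or list members past that test, 5 passed without PTFC replicate 3 (Ccne2, Cxcl1, Cyp2b10, Hoxb4 and Slc8a1), and 8 without HFD24 replicate 1, which were these 5 with Atf3, Ccl2 and Mvd, so the other 73 lost the call when either of these arrays was left out. The PTFC and ND arrays did not overlap in 22.1% of all genes, and 17.1% had an unadjusted p under 0.05.

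The number of genes that passed between PTFC and ND rested on single arrays and on how the arrays were scaled. It was 65 without ND replicate 1, 258 without ND replicate 2, 214 without PTFC replicate 1, 157 without PTFC replicate 2 and 58 without PTFC replicate 3. The deposited intensities of each array were whole multiples of a step of its own, as a scaling factor would leave, and this step was 1.311 ± 0.133 (SD, n = 3, 1.232 to 1.465) for ND and 0.947 ± 0.0872 (0.856 to 1.03) for PTFC. The ranges did not overlap (exact two-sided permutation p = 0.1, the smallest that 3 against 3 allows), so the step and the group cannot be told apart. With the step as a covariate 25 genes passed, 4 higher and 21 lower, 18 of them among the 445. All 445 kept their direction there, at a median of 89.7% of their size. Of the calls 44.7% were higher in PTFC, against 68.7% of 355 calls on the values as deposited and 32.8% of 229 after median centring. Of the named genes 9 passed under every alternative that tested them: Idi1, Sqle, Cyp51, Msmo1, Cidec, Nudt7, Dct, Cenpu and Adgrf1.

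Of the 445 genes, 329 also passed in HFD24 with ND in the same direction, which is 73.9% of the 445 and 9.45% of the 3483. They comprised 176 higher and 153 lower genes, and no gene passed in both with opposite directions. Both comparisons use the same ND arrays, so this count was not tested and the values of each comparison are given side by side. The scaling step of HFD24 was 0.976 ± 0.137 (SD, n = 3, 0.8545 to 1.124), also below that of ND without overlap. In both comparisons, and so in the shared genes, the step and the group cannot be told apart. The other 116 genes (26.1%) passed in PTFC with ND and did not pass in HFD24 with ND, which does not show that PTFC and HFD24 differ there. The plot of medians by gene list shows where the members lay.

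**Figure D1:**
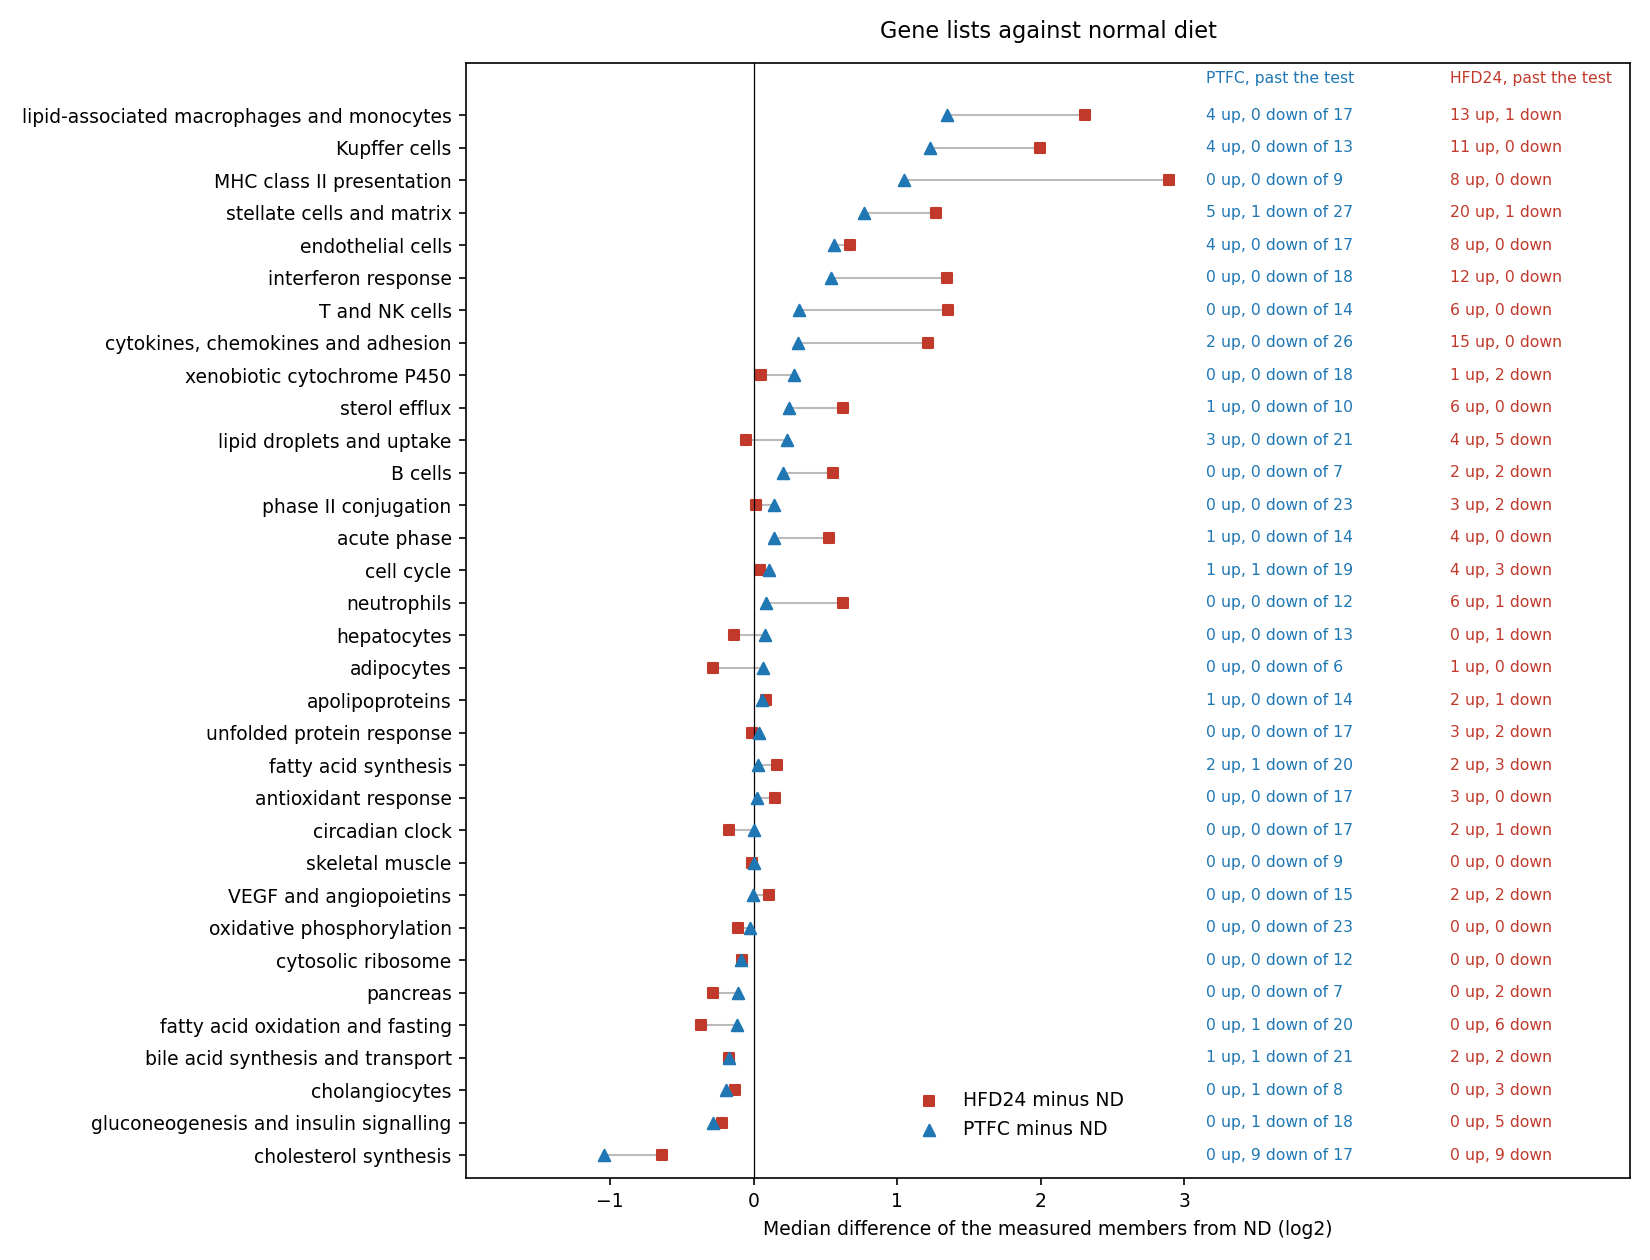
Median log2 difference from ND over the measured members of each gene list, for PTFC (triangles) and for HFD24 (squares), with the number of members past the test at the right. Cholesterol synthesis lies lowest for PTFC at -1.04 with 9 of 17 members down, the macrophage list highest at 1.35 with 4 of 17 up. Both comparisons share the ND arrays, and the median over all genes was -0.01 for PTFC.

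Genes of cholesterol synthesis held the lowest median of any list. In PTFC 9 of the 17 measured members were lower than in ND and none was higher, against 1.29% of all genes lower, and the median difference of the members was -1.04, against -0.01 over all genes. In HFD24 with ND also 9 of 17 fell, against 8.28% of all genes lower, with a median of -0.64. The genes that fell in PTFC run along the pathway from mevalonate phosphates to the removal of methyl groups from lanosterol: Pmvk, Mvd, Idi1, Fdps, Fdft1, Sqle, Cyp51, Msmo1 and Nsdhl.

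The stretches before the start sites of 3 of the genes that fell most, and of Mvd, which stood apart from HFD24 as well, are shown because these members moved together in PTFC. They are the 250 bases before the start, 5′ to 3′ along the gene, from RefSeq for build GRCm38.p6, and the capitals mark CCAAT on either strand (ATTGG on the other), the letters of the CCAAT box that the factor NF-Y binds.
Idi1 (chr13:8885356-8885605, plus strand): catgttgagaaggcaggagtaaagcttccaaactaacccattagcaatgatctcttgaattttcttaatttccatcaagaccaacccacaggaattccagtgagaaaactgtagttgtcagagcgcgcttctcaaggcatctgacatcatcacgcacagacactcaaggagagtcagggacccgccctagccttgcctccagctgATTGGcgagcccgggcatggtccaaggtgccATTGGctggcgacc
Cyp51 (chr5:4104698-4104947, minus strand): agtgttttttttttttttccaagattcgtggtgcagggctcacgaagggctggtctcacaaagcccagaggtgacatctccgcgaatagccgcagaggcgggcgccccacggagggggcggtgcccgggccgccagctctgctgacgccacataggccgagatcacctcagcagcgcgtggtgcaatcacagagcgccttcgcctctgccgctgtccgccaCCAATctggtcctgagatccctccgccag
Msmo1 (chr8:64733579-64733828, minus strand): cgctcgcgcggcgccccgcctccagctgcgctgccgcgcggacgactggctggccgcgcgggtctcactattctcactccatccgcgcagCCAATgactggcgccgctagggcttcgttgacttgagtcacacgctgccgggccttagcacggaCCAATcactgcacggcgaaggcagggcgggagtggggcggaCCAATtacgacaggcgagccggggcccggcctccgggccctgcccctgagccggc
Mvd (chr8:122443423-122443672, minus strand): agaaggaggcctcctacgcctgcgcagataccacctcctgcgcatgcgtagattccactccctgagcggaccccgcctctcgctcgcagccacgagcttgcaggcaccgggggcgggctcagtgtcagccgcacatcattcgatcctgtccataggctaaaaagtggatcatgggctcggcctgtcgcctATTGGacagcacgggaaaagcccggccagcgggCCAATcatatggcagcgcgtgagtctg
The RefSeq table held promoters for 14 of the 17 measured members, with 17 entries, and not for Sqle, Fdps or Fdft1. CCAAT stood in 14 of the 17 entries, at least once for each of the 14 genes, and in 33.8% of 32851 promoters of the same length. TCACNCCAC, the letters of a sterol regulatory element, stood in 0 of the 17 entries on either strand and in 1.05% of all promoters. A match is a description of letters, not of a site in use, and the absence of a match refers only to these letters in this window.

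Idi1, which isomerizes isopentenyl diphosphate, read 12.39, 13.03 and 12.61 on the ND arrays, 9.89, 9.78 and 10.42 in HFD24 and 9.59, 9.53 and 9.28 in PTFC. Every PTFC array lay under every array of both other groups. Idi1 was 9.24-fold lower in PTFC than in ND (-3.21 ± 0.23, adjusted p = 3.53e-05), while its difference from HFD24 of -0.56 did not pass (adjusted p = 0.157). Sqle, squalene epoxidase, a control point of the pathway, read 8.82, 9.29 and 9.57 in ND and 6.20, 6.28 and 6.37 in PTFC. It was 7.69-fold lower (-2.94 ± 0.22), and HFD24 stood at 6.44, 6.55 and 6.40. The PTFC arrays of Sqle lay in the dimmest 25% of signal, where a fold is least certain.

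Cyp51, the lanosterol demethylase, fell from 11.22, 11.39 and 11.89 in ND to 9.33, 9.33 and 9.23 in PTFC (-2.20 ± 0.26, adjusted p = 0.00162), and a further probe of Cyp51 gave -2.18. Msmo1, the methylsterol oxidase of the next steps, fell from 11.96, 11.94 and 12.60 to 10.32, 10.16 and 10.26 (-1.92 ± 0.19). For both, no PTFC array reached an ND array. The smaller decreases were Fdps, farnesyl diphosphate synthase (-1.45 ± 0.26), Nsdhl, a sterol dehydrogenase (-1.28 ± 0.22), Fdft1, squalene synthase (-1.09 ± 0.26), and Pmvk, phosphomevalonate kinase (-1.02 ± 0.23). Fdft1 and Pmvk passed in PTFC with ND at adjusted p = 0.0469 and 0.0348 and not in HFD24 with ND, at -0.50 and -0.51.

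Mvd, which decarboxylates mevalonate diphosphate, separated PTFC from both groups. It read 9.06, 8.88 and 9.50 in ND, 8.77, 9.19 and 9.46 in HFD24 and 8.13, 7.92 and 7.53 in PTFC. ND and HFD24 overlapped (-0.01), and PTFC lay below both, by -1.29 ± 0.22 against ND (adjusted p = 0.0135) and by -1.28 ± 0.22 against HFD24 (adjusted p = 0.0175). Hsd17b7, a sterol ketoreductase, took the other course. Its arrays read 14.36, 14.60 and 14.45 in ND, 12.95, 13.08 and 12.42 in HFD24 and 13.60, 14.30 and 13.80 in PTFC. Hsd17b7 was lower than ND in HFD24 (-1.65) and did not pass in PTFC with ND (-0.57, adjusted p = 0.164), with PTFC above HFD24 by 1.08 (adjusted p = 0.0182). Srebf2, the gene of SREBP-2 itself, was 0.20 above ND in PTFC (adjusted p = 0.71) and 0.77 above HFD24 (adjusted p = 0.0459). Without PTFC replicate 3 the calls of Mvd, Hsd17b7 and Srebf2 against HFD24 were lost. Those of Hsd17b7 and Srebf2 were also lost without HFD24 replicate 1.

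The other members of the list gave differences from ND between -1.04 (Tm7sf2) and -0.33 (Ebp) without passing, among them Dhcr7 at -0.78, Sc5d at -0.61, Lss at -0.50 and Mvk at -0.44. Without ND replicate 1, 5 members passed, and without PTFC replicate 3, 4. Mvd lost its call against ND without either array (adjusted p = 0.0549 to 0.066). With the scaling step as a covariate 4 members passed, Idi1 at -3.79, Sqle at -3.40, Cyp51 at -2.75 and Msmo1 at -1.90.

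**Figure D2:**
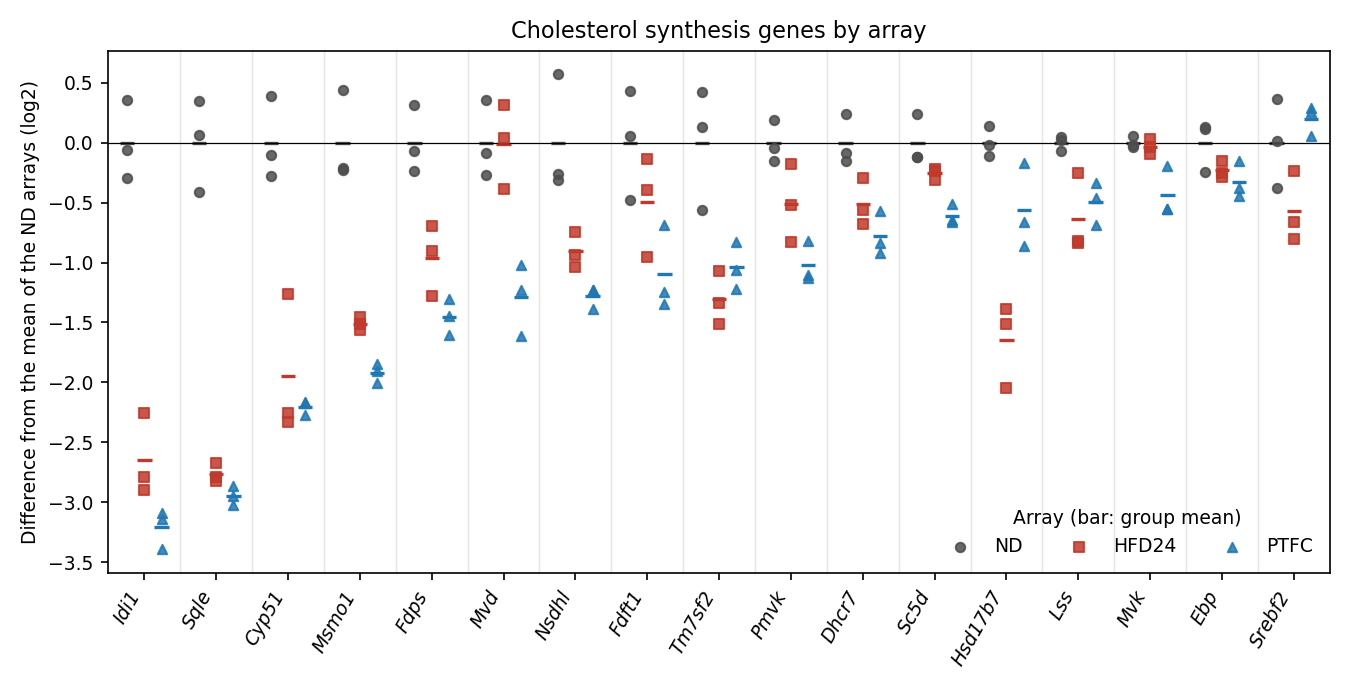
Difference of each array from the mean of the 3 ND arrays (log2) for the 17 measured genes of cholesterol synthesis, with circles for ND, squares for HFD24, triangles for PTFC and bars for group means. The PTFC arrays of Idi1, Sqle, Cyp51 and Msmo1 lie far below ND and near HFD24, those of Mvd below both groups, and those of Hsd17b7 between them.

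Of 21 genes of lipid droplets and uptake 3 were higher in PTFC than in ND, the droplet genes Cidea and Cidec and the binding protein gene Fabp2. Cidea, a droplet protein of brown fat that appears in fatty liver, read 9.13, 9.01 and 8.33 in ND, 14.71, 10.98 and 11.90 in HFD24 and 13.33, 12.72 and 13.48 in PTFC. The PTFC arrays were all above ND and within the wide range of HFD24, 20.4-fold above ND (4.35 ± 0.69, adjusted p = 0.00913). Cidec, which fuses droplets, read 12.58, 12.84 and 13.32 in ND, 14.54, 13.85 and 14.01 in HFD24 and 14.89, 14.80 and 14.99 in PTFC. It was 3.94-fold above ND (1.98 ± 0.23, adjusted p = 0.00146), and its PTFC arrays lay above every HFD24 array, though that difference of 0.76 did not pass (adjusted p = 0.0695). Fabp2, a fatty acid binding protein, was 2.03-fold higher (1.02 ± 0.15), against 1.13 in HFD24.

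Of all genes 1.04% were higher, and none of the 21 genes of lipid droplets and uptake was lower. In HFD24 with ND 4 were higher and 5 lower, where 9.97% of all genes were higher and 8.28% lower. Cd36, a fatty acid transporter, was lower in HFD24 than in ND (-1.09) and read 10.46, 10.28 and 10.77 in PTFC against 10.70, 10.84 and 10.24 in ND, which overlapped (-0.09, adjusted p = 0.883). PTFC was above HFD24 in Cd36 by 1.00 (adjusted p = 0.0182), in Pnpla2, the first lipase of droplet breakdown, by 0.80, and in Plin5, a perilipin of oxidative tissues, by 1.04. No call of the list against HFD24 held without PTFC replicate 3 or without HFD24 replicate 1. Plin2, the common droplet coat, differed from ND by 0.41 (adjusted p = 0.508). Without PTFC replicate 3 Cidea stood at 4.22 with an adjusted p of 0.0513.

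In fatty acid synthesis 2 of 20 measured genes were higher in PTFC than in ND and 1 lower, with a median of 0.03. Of all genes 1.04% were higher and 1.29% lower. Srebf1, whose product drives lipogenic genes, rose from 7.99, 8.16 and 7.85 to 9.19, 10.01 and 9.28 (1.50 ± 0.28), and was 1.64 higher in HFD24. Lpin1, a phosphatidate phosphatase and coactivator, also rose and is described with the genes apart from both groups. Fads1, the delta-5 desaturase of polyunsaturated fatty acids, fell from 16.81, 16.61 and 16.64 to 15.70, 14.84 and 15.18 (-1.45 ± 0.25), against -1.02 in HFD24. Srebf1 and Fads1 each lost the call without ND replicate 1, PTFC replicate 2 or PTFC replicate 3 (adjusted p = 0.0514 to 0.0849).

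Of 20 genes of fatty acid oxidation and fasting, 1 was lower in PTFC than in ND and none was higher. Of all genes 1.29% were lower and 1.04% higher. Ppargc1a, a coactivator of mitochondrial genes, was the member that fell. It read 10.13, 10.33 and 11.02 in ND and 9.31, 9.47 and 8.98 in PTFC (-1.24 ± 0.25), with HFD24 at -1.40. In HFD24 with ND 6 of the 20 fell, where 8.28% of all genes were lower. In PTFC with HFD24 5 were higher, where 2.96% of all genes were higher. None of these 5 calls held without PTFC replicate 3 or without HFD24 replicate 1. Pdk4, which restrains glucose oxidation, read 13.01, 13.69 and 14.71 in ND, 11.19, 12.00 and 11.24 in HFD24 and 12.81, 13.37 and 13.14 in PTFC. PTFC overlapped ND in Pdk4 (-0.69, adjusted p = 0.416) and stood above HFD24 by 1.63 (adjusted p = 0.0359). Acot1, an acyl-CoA thioesterase, followed the same order, at -0.39 from ND (adjusted p = 0.507) and 1.24 above HFD24. Ehhadh and Hadha, enzymes of peroxisomal and mitochondrial oxidation, were 1.20 and 1.14 above HFD24 and 0.28 and 0.06 from ND. Ppargc1a lost its call without PTFC replicate 1 or 3 (adjusted p = 0.0611 to 0.112).

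Abcg1, which exports cholesterol, was the member of 10 sterol efflux genes that passed against ND, where 2.33% of all genes passed. It read 9.17, 9.28 and 9.44 in ND, 12.09, 11.97 and 11.66 in HFD24 and 11.17, 10.77 and 10.90 in PTFC, 3 groups that did not overlap. Abcg1 was 3.14-fold above ND (1.65 ± 0.23, adjusted p = 0.00387) and below HFD24 by -0.96 (adjusted p = 0.0323). Its call against HFD24 was lost without PTFC replicate 3 or HFD24 replicate 1. Of 21 bile acid genes, Cyp7b1, the oxysterol hydroxylase, was lower (-1.06 ± 0.19), and Abcc4, an export pump of the blood side, higher (1.48 ± 0.30), against -1.01 and 1.27 in HFD24. In PTFC with ND 1.29% of all genes were lower and 1.04% higher. Nr0b2, the repressor SHP of bile acid synthesis, read 12.42, 10.64 and 10.49 in ND and 12.94, 12.26 and 13.62 in PTFC, which overlapped (1.76, adjusted p = 0.0656). Cyp7b1 lost its call without ND replicate 1 or PTFC replicate 2 or 3 (adjusted p = 0.0513 to 0.0849), and Abcc4 without ND replicate 1 or 2 (0.0528 to 0.118).

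Among 18 genes of gluconeogenesis and insulin signalling Sik1, a kinase that restrains the glucagon response, fell from 10.67, 11.20 and 11.52 in ND to 8.29, 10.07 and 9.26 in PTFC (-1.93 ± 0.40), against -1.99 in HFD24. Irs2, an insulin receptor substrate, was lower in HFD24 (-1.96) and read 12.56, 13.43 and 12.97 in PTFC against 13.15, 13.84 and 13.66 in ND, which overlapped (-0.56, adjusted p = 0.249). PTFC was above HFD24 in Irs2 by 1.40 (adjusted p = 0.0173), and in Igfbp1, a binding protein of insulin-like growth factors, by 1.71 (adjusted p = 0.0239), with Igfbp1 at -0.09 from ND. Neither call against HFD24 held without PTFC replicate 3 or without HFD24 replicate 1. Apoa4, an apolipoprotein of fat export, was the member of 14 apolipoproteins that passed, at 1.28 ± 0.25 above ND against 0.88 in HFD24. Sik1 and Apoa4 were each the 1 member of their list that passed against ND, where 2.33% of all genes passed. Sik1 lost its call without any of 5 arrays, the 3 ND arrays and PTFC replicates 1 and 3 (adjusted p = 0.0659 to 0.104), and Apoa4 without ND replicate 1 or PTFC replicate 2 or 3 (0.0571 to 0.114).

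Some markers of Kupffer cells and macrophages were higher in PTFC than in ND. Of 13 Kupffer cell genes 4 were higher than in ND and none lower, against 1.04% of all genes higher, with a median of 1.23 and 11 differences above 0. In HFD24 11 of the 13 were higher, against 9.97% of all genes, with a median of 2.00. The share of all genes past the test differed as widely between the comparisons, so the counts of any list in PTFC and in HFD24 are to be read against these shares and not against each other. C1qb, a chain of complement C1q that macrophages make, read 10.50, 11.92 and 11.76 in ND, 14.81, 14.77 and 13.60 in HFD24 and 13.63, 13.62 and 13.75 in PTFC, 4.83-fold above ND (2.27 ± 0.47, adjusted p = 0.0276). C1qc stood at 2.24 ± 0.48. Vsig4, a complement receptor of Kupffer cells, read 6.62, 7.69 and 8.62 in ND and 10.00, 9.69 and 9.91 in PTFC (2.22 ± 0.46), and Folr2, a folate receptor of resident macrophages, was 1.31 ± 0.25 higher. None of these 4 passed between PTFC and HFD24, where the differences ran from -0.73 to -0.21. Clec4f, the marker most particular to mouse Kupffer cells, was 1.28 above ND and did not pass (adjusted p = 0.0982).

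Of 17 genes of lipid-associated macrophages and monocytes 4 were higher in PTFC and none lower, with a median of 1.35 and 13 differences above 0. In HFD24 13 were higher and 1 lower, with a median of 2.31. Of all genes 1.04% were higher than in ND in PTFC and 9.97% in HFD24. Tyrobp, an adaptor of myeloid receptors, read 8.51, 9.91 and 9.67 in ND, 13.31, 12.87 and 12.15 in HFD24 and 11.58, 11.94 and 11.82 in PTFC (2.42 ± 0.53). Cd68, a lysosomal protein of macrophages, was 2.05 ± 0.45 above ND and Cd63, a lysosomal tetraspanin, 1.73 ± 0.36. Gpnmb, a glycoprotein of lipid-laden macrophages, read 7.07, 7.22 and 6.87 in ND and 10.32, 12.57 and 9.64 in PTFC, 13.8-fold higher with a wide spread (3.79 ± 0.90, adjusted p = 0.0461). Other probes gave 0.45 for Gpnmb and 0.30 for Cd63, neither past the test, and Gpnmb lost its call without any of 10 arrays (adjusted p = 0.0552 to 0.146).

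The summed normalized intensity of the macrophage list was 14500 to 18080 in ND, 40030 to 57940 in PTFC and 95740 to 113700 in HFD24, and that of the Kupffer list 65290 to 119500, 136900 to 168300 and 219100 to 340000, with no marker of either list at 0 on any array. The sum over hepatocyte markers was 3342000 to 3528000 in ND and 3354000 to 3508000 in PTFC. No Kupffer gene passed without ND replicate 1 or without any PTFC replicate, and no macrophage gene passed without ND replicate 1 or PTFC replicate 1 or 2. No member of either list passed with the scaling step as a covariate, where the medians were 0.47 and 0.30.

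Endothelial genes rose in 4 of 17 cases, with none lower and a median of 0.56, where 1.04% of all genes were higher. In HFD24 with ND 8 of 17 were higher, with a median of 0.67, where 9.97% of all genes were higher. Lyve1, a hyaluronan receptor of sinusoidal endothelium, read 6.93, 7.19 and 8.94 in ND, 11.29, 10.82 and 10.03 in HFD24 and 10.44, 11.04 and 10.44 in PTFC. It was 7.75-fold above ND (2.95 ± 0.49, adjusted p = 0.0117), and PTFC lay within HFD24. Oit3, a secreted protein of sinusoidal cells, was 1.23 ± 0.21 higher, Stab2, a scavenger receptor of the same cells, 0.97 ± 0.18, and Cdh5, the endothelial cadherin, 0.95 ± 0.21. The summed intensity of the list was 109000 to 143400 in ND and 154700 to 161300 in PTFC. No endothelial gene passed without ND replicate 1, without PTFC replicate 3 or with the scaling step as a covariate. The part of cell numbers in these differences was not tested.

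Of 27 genes of stellate cells and matrix 5 were higher in PTFC than in ND and 1 lower, with a median of 0.77. Of all genes 1.04% were higher and 1.29% lower there. In HFD24 with ND 20 were higher and 1 lower, with a median of 1.27, where 9.97% of all genes were higher and 8.28% lower. Sparc, a collagen-binding matrix protein, read 10.40, 10.95 and 11.40 in ND, 13.37, 13.30 and 13.43 in HFD24 and 12.58, 12.82 and 12.59 in PTFC. The 3 groups did not overlap, with PTFC 3.35-fold above ND (1.74 ± 0.22, adjusted p = 0.00266). Lrat, which stores vitamin A in stellate cells, was 1.65 ± 0.31 above ND, Lum, a collagen fibril proteoglycan, 1.62 ± 0.39, and Col4a1, a basement membrane collagen, 1.13 ± 0.25. Timp1, an inhibitor of matrix metalloproteinases, read 4.45, 4.21 and 3.94 in ND, 10.51, 10.26 and 10.61 in HFD24 and 7.54, 7.07 and 6.76 in PTFC. Timp1 was 2.92 ± 0.65 above ND (adjusted p = 0.0362) and -3.33 from HFD24 (adjusted p = 0.021), with ND in the dimmest 25% of signal. The call of Timp1 against ND was lost without any of 8 arrays (adjusted p = 0.0512 to 0.118). Against HFD24, 5 genes of the list were lower in PTFC, where 3.04% of all genes were lower. None of these 5 calls held without PTFC replicate 3 or without HFD24 replicate 1.

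Fibrillar collagens gave other values. The probe of Col1a1, which encodes the main chain of type I collagen, was lower than ND in PTFC (-1.10 ± 0.22) and in HFD24 (-0.91). Col3a1 and Col1a2, chains of types III and I, were 3.31 and 3.69 above ND in HFD24, and in PTFC 1.17 (adjusted p = 0.175) and 1.15 (adjusted p = 0.297). For both, PTFC was lower than HFD24, by -2.14 and -2.54, as it was for Pdgfrb, the receptor of platelet-derived growth factor on stellate cells (-1.50), which stood 0.16 from ND. The ND arrays of Col3a1 and Col1a2 were in the dimmest 25% of signal, and Col1a1 lost its call without ND replicate 1 or PTFC replicate 1 or 3 (adjusted p = 0.078 to 0.112). Acta2, the actin of activated stellate cells, differed from ND by 0.33 (adjusted p = 0.489). Without ND replicate 1, ND replicate 2 or PTFC replicate 2 a single matrix gene was higher, 2 were without ND replicate 3 or PTFC replicate 3, 3 without PTFC replicate 1, and none with the scaling step as a covariate.

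Of 26 cytokine, chemokine and adhesion genes 2 passed in PTFC with ND, both higher, where 1.04% of all genes were higher. In HFD24 with ND 15 passed, all higher, where 9.97% of all genes were higher. Ccl2, which draws monocytes, read 5.85, 6.53 and 6.17 in ND, 10.63, 11.06 and 11.25 in HFD24 and 8.75, 7.97 and 8.26 in PTFC. Cxcl1, which draws neutrophils, read 7.11, 6.77 and 7.02 in ND, 11.12, 11.78 and 11.59 in HFD24 and 9.81, 9.11 and 8.60 in PTFC. In each the 3 groups were apart, with PTFC 2.14 ± 0.36 and 2.21 ± 0.30 above ND (adjusted p = 0.0132 and 0.00387) and -2.66 and -2.32 from HFD24 (adjusted p = 0.00788 for both). Lcn2, lipocalin 2 of the acute phase, which captures iron carriers of bacteria, lay in the same order, at 8.49, 8.38 and 8.57 in ND, 15.21, 14.47 and 13.58 in HFD24 and 12.27, 12.54 and 11.26 in PTFC (3.54 ± 0.61 above ND). It was the member of 14 acute phase genes that passed against ND, where 2.33% of all genes passed. Ccl2 lost its call against ND without ND replicate 1 or PTFC replicate 3 (adjusted p = 0.0541 to 0.0686) and Lcn2 without ND replicate 1 (0.0605).

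No gene of MHC class II presentation passed between PTFC and ND, of 9 measured, against 2.33% of all genes, a share at which none of 9 is near the background. Of the same 9 genes 8 passed in HFD24 with ND, against 18.3% of all genes. Their median was 1.05 above ND in PTFC and 2.89 in HFD24. Cd74, the invariant chain, read 9.53, 11.54 and 10.74 in ND, 15.64, 14.99 and 14.30 in HFD24 and 13.53, 12.86 and 13.36 in PTFC, without overlap between PTFC and ND (2.65 ± 0.74, adjusted p = 0.0773). Of the other probes of Cd74, one gave 2.72 with an adjusted p of 0.0471 among all probes and another 0.77 with 0.477. Of 18 interferon response genes none passed in PTFC with ND, which is also near the background of 2.33%, with a median of 0.54. In HFD24 with ND 12 passed, where 18.3% of all genes passed, with a median of 1.35. Gbp2, an interferon-induced GTPase, stood at 1.48 ± 0.57 (adjusted p = 0.19). With the fit on the 6 arrays alone 4 class II genes and 3 interferon genes passed, all higher, so the absence of calls depended on the arrays that set the spread.

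**Figure D3:**
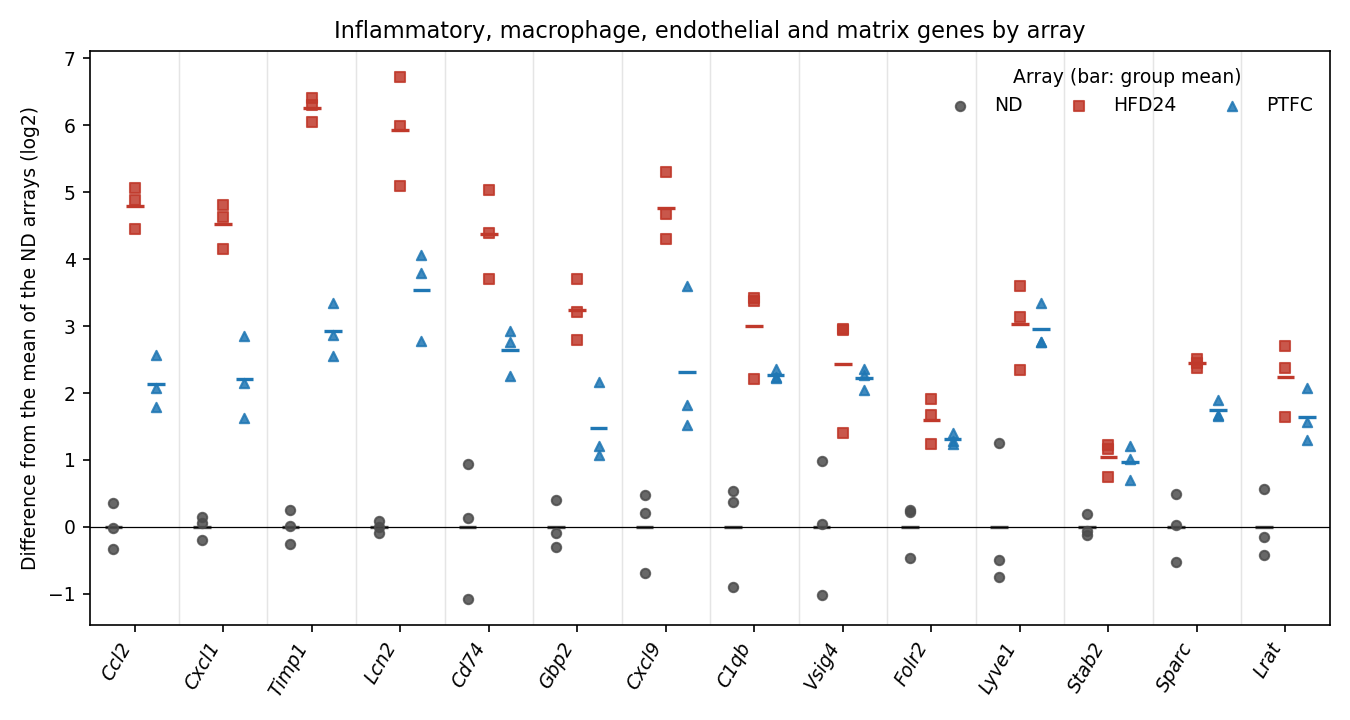
Difference of each array from the mean of the 3 ND arrays (log2) for inflammatory, macrophage, endothelial and matrix genes, with circles for ND, squares for HFD24, triangles for PTFC and bars for group means. The PTFC arrays of Ccl2, Cxcl1, Timp1 and Lcn2 lie between ND and HFD24, and those of Vsig4 and Lyve1 lie within the range of HFD24.

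Markers of lymphoid cells and neutrophils gave no call in PTFC with ND, with 0 of 14 T and NK cell genes, 0 of 7 B cell genes and 0 of 12 neutrophil genes, and at 2.33% of all genes past the test these counts are near the background. In HFD24 with ND, where 18.3% of all genes passed, 6 T and NK cell genes were higher, 2 B cell genes higher and 2 lower, and 6 neutrophil genes higher and 1 lower. S100a9, an alarmin of neutrophils, read 9.60, 10.22 and 9.57 in PTFC and 8.70, 7.93 and 9.76 in ND, which overlapped (1.00, adjusted p = 0.272). Summed levels of the T and NK list were 5175 to 5878 in ND, 5810 to 6529 in PTFC and 9996 to 10890 in HFD24. The lists of xenobiotic cytochrome P450 genes (18 measured), phase II conjugation (23), antioxidant response (17), unfolded protein response (17), circadian clock (17), oxidative phosphorylation (23), cytosolic ribosome (12), hepatocytes (13), adipocytes (6), skeletal muscle (9) and pancreas (7) gave no call either.

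Genes that separated PTFC from HFD24 without passing against ND also lay in these and other lists. Cyp2b10, a drug-metabolizing P450 that responds to the receptor CAR, read 9.86, 10.41 and 11.23 in ND, 9.07, 7.30 and 7.93 in HFD24 and 12.58, 11.41 and 10.52 in PTFC. PTFC overlapped ND (1.00 ± 0.53, adjusted p = 0.372) and was above HFD24 by 3.40 (adjusted p = 0.013). Of 19 cell cycle genes 1 was higher in PTFC than in ND (Cdkn1a) and 1 lower (Cenpu), against 1.04% and 1.29% of all genes. Cenpf and Ccne2 were -1.61 and -1.82 from ND in HFD24 and 0.71 and 0.02 in PTFC, neither of which passed. In HFD24 with ND 4 members were higher and 3 lower, against 9.97% and 8.28% of all genes, with a median of 0.05. Between PTFC and HFD24 8 of the 19 differences lay above 0, with a median of -0.28. The call of Cenpf against HFD24 was lost without PTFC replicate 3 or HFD24 replicate 1.

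Vegfc, whose product VEGF-C the study's title names as a predicted target, drives the growth of lymphatic vessels. It read 8.39, 8.60 and 9.40 in ND, 10.19, 10.00 and 10.25 in HFD24 and 9.61, 9.93 and 9.75 in PTFC. All PTFC arrays were above the ND arrays and below the HFD24 arrays. Vegfc was 0.97 ± 0.24 above ND in PTFC, short of the threshold (adjusted p = 0.0535), and -0.38 from HFD24 (adjusted p = 0.35), while HFD24 was 1.35 above ND (adjusted p = 0.00249). Vegfc passed in PTFC with ND under 4 of 22 alternatives. No member of the 15 genes of VEGF and angiopoietins passed in PTFC with ND, which is near the background of 2.33% of all genes. In HFD24 with ND 2 were higher and 2 lower, where 18.3% of all genes passed. Vegfa, the main growth factor of blood vessels, stood at -0.36 from ND in PTFC (adjusted p = 0.222).

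Genes that differed from both ND and HFD24 in the same direction numbered 32, 5 higher and 27 lower in PTFC. The 2 comparisons share the PTFC arrays, so the count was not tested. It was 1 without PTFC replicate 3, 5 without ND replicate 1, 5 without HFD24 replicate 1, 7 without PTFC replicate 2, 9 without HFD24 replicate 2, 13 without PTFC replicate 1, 13 without HFD16 replicate 3, 15 with the replicate block and 2 with the scaling step as a covariate. On the values as deposited it was 19, 13 higher and 6 lower, so the split by direction turned with the scaling. Il3 is one of the 5 higher genes and is described with the largest differences. Cdkn1a, which encodes the cell cycle inhibitor p21, read 13.33, 13.06 and 14.20 in ND, 13.45, 13.58 and 14.07 in HFD24 and 15.04, 15.33 and 14.69 in PTFC. The PTFC arrays were above all others, 2.81-fold above ND (1.49 ± 0.27, adjusted p = 0.0156) and 1.32 above HFD24. Lpin1 read 11.78, 11.49 and 12.44 in ND, 11.47, 11.72 and 11.36 in HFD24 and 13.05, 13.55 and 13.03 in PTFC, 1.30 ± 0.26 above ND and 1.69 above HFD24 (adjusted p = 0.0254 and 0.0123). A further probe of Lpin1 gave 1.94. Slc8a1, a sodium and calcium exchanger, was 0.82 ± 0.17 above ND and 1.12 above HFD24, and Krtap5-4, a keratin-associated protein, 1.04 ± 0.16 and 0.65.

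Among those lower, Nudt7, a peroxisomal hydrolase of coenzyme A, read 16.26, 15.83 and 16.21 in ND, 15.25, 15.30 and 15.45 in HFD24 and 14.60, 14.55 and 14.72 in PTFC. The 3 groups formed separate steps, with PTFC 2.78-fold below ND (-1.47 ± 0.13, adjusted p = 0.000262) and -0.71 from HFD24 (adjusted p = 0.0186). The call of Nudt7 against HFD24 was lost without PTFC replicate 3 or HFD24 replicate 1. So were those of Cdkn1a, Lpin1, Krtap5-4, Il3, Dnmt3b, Usp28, Fam189a1, Muc1 and Htra4. The calls of Hoxb4 and Slc8a1 against HFD24 held when either of these arrays was left out. Dnmt3b, a DNA methyltransferase, was -1.65 ± 0.27 from ND, and Hoxb4, a homeobox factor, -1.08 ± 0.18, with -1.06 and -1.50 against HFD24. Usp28, a deubiquitinase, stood at -1.06 ± 0.21, Fam189a1 at -1.15 ± 0.23, Muc1, a mucin of bile duct cells, at -1.14 ± 0.27, and Htra4, a serine protease at the dim end of the signal, at -2.62 ± 0.61. Muc1 was the 1 member of 8 measured bile duct genes that passed against ND, where 2.33% of all genes passed. Against HFD24, Cldn7 of that list was 0.93 higher, and 4 of the 8 differences lay above 0, with a median of 0.11. Without ND replicate 1 the calls of Cdkn1a, Lpin1, Slc8a1, Dnmt3b, Hoxb4, Usp28, Fam189a1, Muc1 and Htra4 against ND were lost, as they were without at least 1 PTFC array each (adjusted p = 0.0503 to 0.183).

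**Figure D4:**
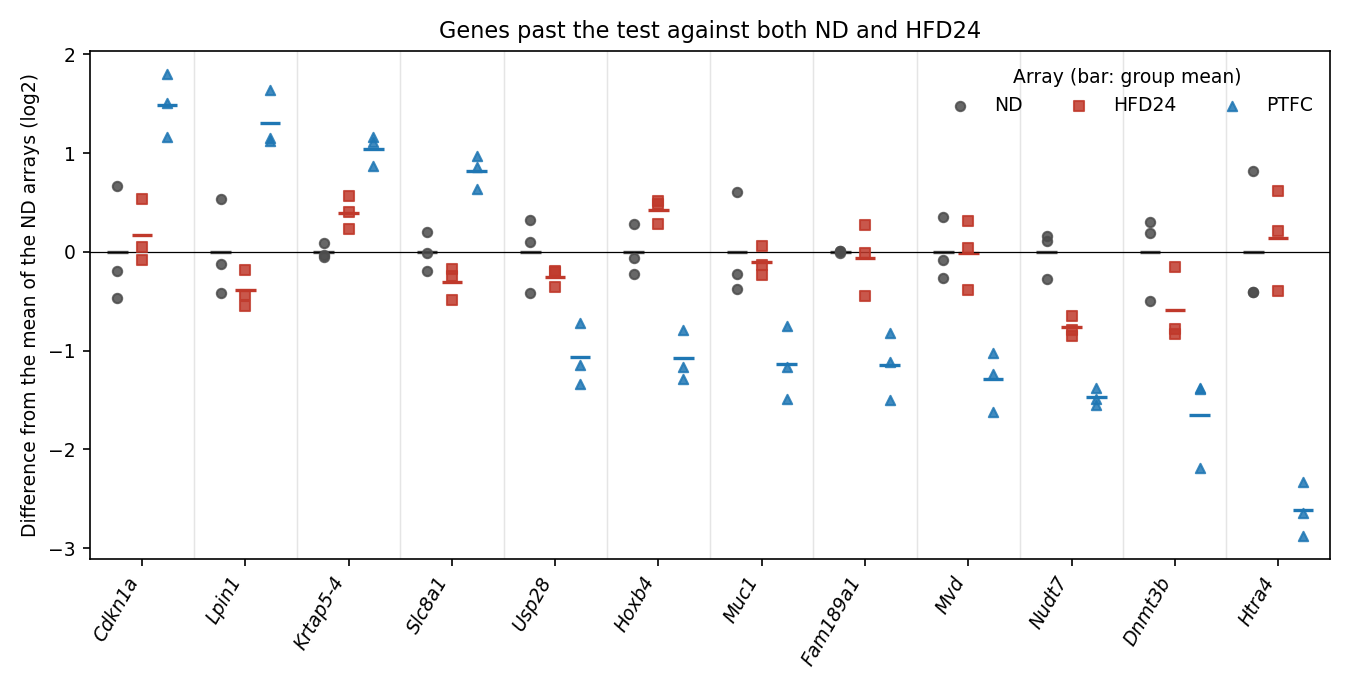
Difference of each array from the mean of the 3 ND arrays (log2) for named genes past the test against both ND and HFD24, without Il3, with circles for ND, squares for HFD24, triangles for PTFC and bars for group means. The PTFC arrays lie above both groups for Cdkn1a, Lpin1, Krtap5-4 and Slc8a1 and below both for the other 8 genes, while Nudt7 also separates HFD24 from ND.

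The largest differences from ND lay in genes of varied roles. Rgs16, which ends signalling by G protein-coupled receptors, read 7.10, 7.37 and 6.25 in ND, 9.46, 11.31 and 11.13 in HFD24 and 11.53, 10.13 and 10.32 in PTFC (13.5-fold above ND, 3.76 ± 0.52). Gramd1b, which carries cholesterol from the plasma membrane to the endoplasmic reticulum, was 2.28 ± 0.30 above ND against 2.84 in HFD24, with ND in the dimmest 25% of signal. Il3, a cytokine of blood cell growth, was listed at 0 in deposited intensity on 2 ND arrays and at 1.232 on ND replicate 2, and at 7.635, 337.3 and 462.4 in PTFC. HFD24 was listed at 0, 5.62 and 0. The Il3 call rested on PTFC replicates 2 and 3 and was lost without either or without ND replicate 1 (adjusted p = 0.0653 to 0.0849).

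Dct, dopachrome tautomerase of melanin synthesis, fell most of the named genes. It read 11.56, 11.31 and 11.24 in ND, 7.78, 7.55 and 8.23 in HFD24 and 6.22, 7.49 and 8.12 in PTFC (17.1-fold lower, -4.09 ± 0.42). Cenpu, a centromere protein, read 12.19, 10.41 and 11.07 in ND and 7.37, 7.63 and 6.76 in PTFC (-3.97 ± 0.37), against -3.20 in HFD24. Adgrf1, an adhesion G protein-coupled receptor, was -2.46 ± 0.19 from ND and Fam222a -2.54 ± 0.29, with -2.39 and -2.60 in HFD24. Cabyr, a calcium-binding protein of sperm, stood at -3.83 ± 0.49 by its brightest probe and at 0.09 by another. The small nucleolar RNA genes Snora81 and Snora20 were -2.34 ± 0.42 and -2.21 ± 0.46 from ND, and both lost the call without ND replicate 1 or PTFC replicate 2 or 3 among others (adjusted p = 0.0514 to 0.121). Lrrc8d, a channel subunit, was listed at 0 on all PTFC arrays and at 2.464 to 8.788 in ND, and its call was lost without any of 7 arrays.

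**Figure D5:**
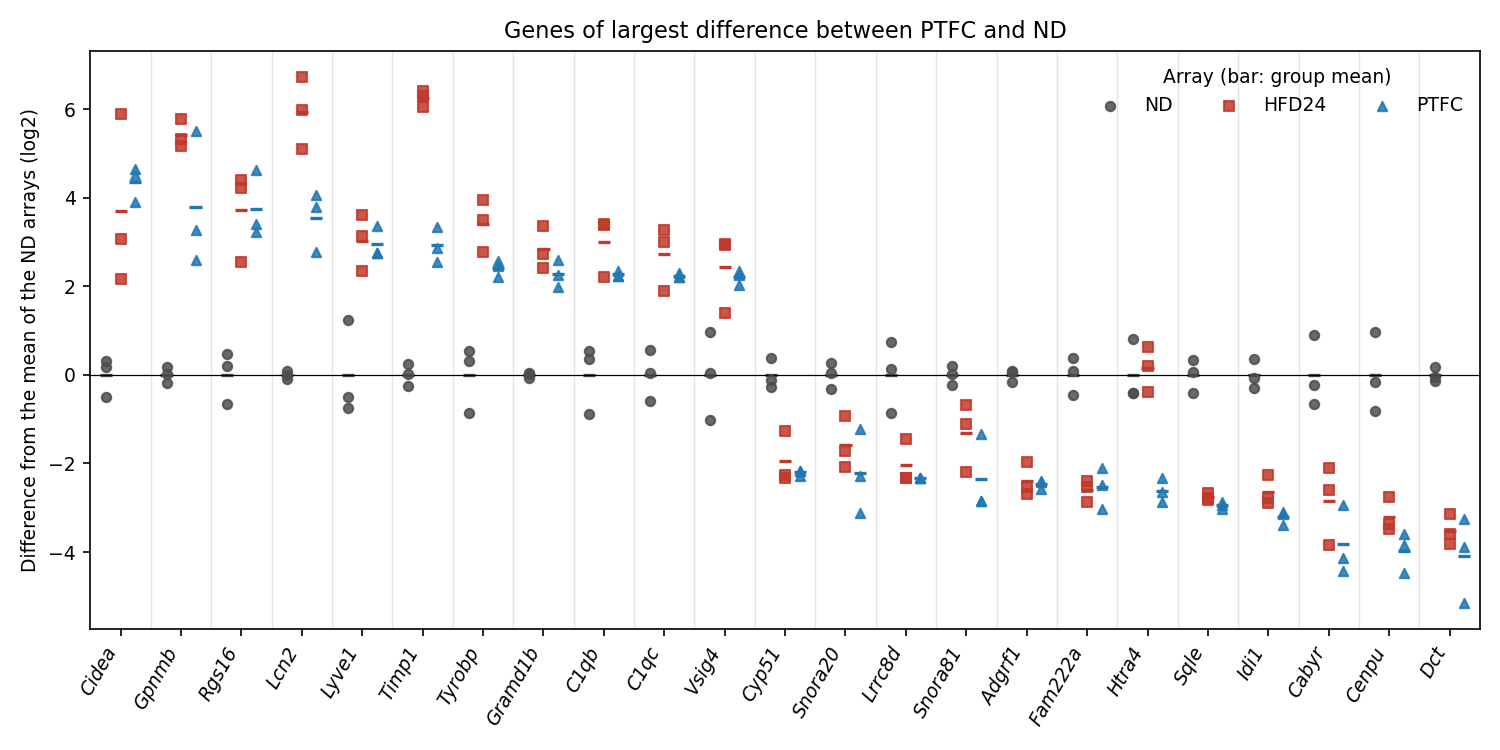
Difference of each array from the mean of the 3 ND arrays (log2) for the named genes of largest difference between PTFC and ND without Il3, with circles for ND, squares for HFD24, triangles for PTFC and bars for group means. For Cidea, Rgs16, Lyve1 and Dct the PTFC arrays overlap those of HFD24, for Idi1, Sqle and Cenpu they lie just below them, for Lcn2 and Timp1 between the groups, and for Htra4 apart from both.

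Several of the largest changes of the diet did not pass in PTFC with ND. Ubd, a ubiquitin-like modifier induced by interferon, read 8.57, 8.82 and 8.68 in ND, 14.21, 14.87 and 12.16 in HFD24 and 11.17, 9.84 and 9.55 in PTFC. Its PTFC arrays lay above ND and below HFD24, at 1.50 ± 0.86 from ND (adjusted p = 0.418) against 5.06 in HFD24. Cxcl9, which draws T cells, stood at 2.31 ± 0.78 (adjusted p = 0.138) against 4.76. Cdk5r1, an activator of the kinase Cdk5, stood at 2.29 ± 0.59 (adjusted p = 0.0624) against 4.62, and Slpi, a secreted protease inhibitor, at 2.04 ± 0.52 (adjusted p = 0.0581) against 4.56. Ppp1r3g, which directs a phosphatase to glycogen, stood at -1.82 ± 0.65 (adjusted p = 0.158) against -3.17 in HFD24. Between PTFC and HFD24, Ubd, Cdk5r1 and Slpi passed (adjusted p = 0.0231 to 0.0402), Cxcl9 and Ppp1r3g did not (0.078 and 0.223), and a difference short of the threshold does not show equal levels. The calls of Ubd, Cdk5r1 and Slpi against HFD24 were lost without PTFC replicate 3 or HFD24 replicate 1.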

How the data were processed

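Per the labels' protocols, liver RNA isolated in Trizol was amplified and coupled to Cy5, with 1 colour per array. The authors deposited linear intensity values of 26423 probes on 12 arrays. Background subtraction, scaling and spot averaging: not given in the sources used here. Among 317076 values 291 were below 0, set to 0, and 133 at 0. Array medians were 300.3 to 379.4 for ND and 368.9 to 407.8 for PTFC, and across genes the ND and PTFC arrays of a group correlated at 0.984 to 0.993 (6 pairs) and between them at 0.979 to 0.987 (9 pairs). For arrays, their number limits the precision.

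The platform table named 21876 probes with 1 symbol each and left 4547 unnamed. Each intensity had 1 added as a pseudocount before log2 was taken, and quantile normalization then covered all probes. The pseudocount understates ratios of dim genes that lie above 0 on every array. Where a gene is listed at 0, the size of its difference depends on the pseudocount. Il3 stood 6.38 above ND in PTFC with 1, 3.89 with 8 and 2.44 with 32. Lrrc8d ranged from -2.73 to -0.19 over the alternatives. The brightest probe was kept for each of 19084 genes. With R 4.3.3, limma 3.58.1 (eBayes with a trend) was fitted to all 12 arrays without a replicate block, with two-sided tests, and was tested on simulated data. The simulated arrays were independent and held no scaling step, so that test cannot show how the step affects the calls. Alternatives changed the scaling, the pseudocount, the filter, the probe, the arrays and the block, added the scaling step, or left out each array.

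Named were, for each direction, the 12 genes that passed without overlap and differed most from ND, the 8 and 8 that passed against both ND and HFD24 (5 were higher, in all), the 8 and 8 of largest difference in HFD24, up to 4 members per list with the smallest p, and Vegfc. Predicted transcripts and odorant receptors were passed over. Other list members were named after their values were seen. The members and lists were chosen with earlier results of these data known. Labels on the light cycle contradict themselves and were not used.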

Additional observations from a re-analysis of the deposited data

How the results depend on the processing

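All 445 genes past the test in PTFC with ND kept their direction under each alternative with 1 value per gene that tested them. In all 445 the PTFC and ND arrays did not overlap, so leaving out an array or changing the spread could hardly turn a direction. The kept direction is therefore no check of the calls. With every probe taken on its own, Cabyr, at -3.83, stood at 0.09 by its other probe. The count was 229 after median centring and 25 with the scaling step as a covariate, and leaving out an array gave 58 to 656. With the replicate block it was 318, 293 of them among the 445. The labels do not say whether the numbers pair the arrays. Deviations from the group mean correlated at 0.0385, -0.0522 and -0.288 for same-numbered ND and PTFC arrays. They correlated at -0.193 to 0.261 for differently numbered ones. For same-numbered HFD24 and PTFC arrays the values were -0.24, -0.229 and -0.0486. Deviations from a mean of 3 arrays depend on each other, so these values cannot decide whether arrays were paired. HFD24 with ND gave 382 genes with the scaling step and 1738 to 4939 without an array, the fewest without ND replicate 1. PTFC with HFD24 gave 1745 from the 6 arrays alone, 337 with the replicate block, and 11 (without PTFC replicate 3) to 1981 (without ND replicate 3) without an array. On the values as deposited 90.5% of its calls were higher, against 49.3%, and the median of all genes was 0.242 instead of 0.012. For HFD24 with ND 41.3% were higher, against 54.6%, with a median of -0.225. Of 58 named genes that passed, 9 did so with the scaling step, while 38 lost the call without ND replicate 1 and 36 without PTFC replicate 3. The cause of these changes was not tested. The lowest 25% of genes, under a log2 level of 6.84, held ND or PTFC for 7 of the 24 genes of largest difference.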

Other observations

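Small nucleolar RNA genes, chosen after their values were seen, lay mostly below ND in PTFC. Of 58 measured Snora and Snord genes 10 were lower (17.2%) and none higher, against 1.29% of all genes lower, 51 had a difference below 0, and the median was -0.56. In HFD24 with ND 16 were lower, with a median of -0.42, from the same ND arrays. Of 4547 probes without a symbol 38 passed in PTFC with ND (0.836%), 4 higher and 34 lower.

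Besides genes named by the rule, some genes of the 445 passed with the scaling step as a covariate, and these were also chosen after their values were seen. Adam11, a non-catalytic member of the ADAM family, was 2.11 ± 0.20 above ND, Wfdc2 2.20 ± 0.24 and Depp1 2.01 ± 0.40, against 2.31, 2.68 and 2.47 in HFD24. Stard4, which carries cholesterol between membranes, was -2.16 ± 0.25 from ND and -1.50 in HFD24, and the RefSeq promoter table held no entry for it.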
